A study of Homo sapiens with 4 samples.

Results

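Semaphorins, their plexin receptors and the neuropilin co-receptors were examined in HUES8 cells, a human embryonic stem cell line. The members are the genes of the deposited count table whose symbol is a semaphorin of class 3 to 7, a plexin of family A to D, NRP1 or NRP2. This gave 31 of the 59050 listed genes: 20 semaphorins, 9 plexins and 2 neuropilins. The cells were grown in mTeSR1 medium on plates coated with Matrigel, and total RNA was sequenced. Of the 4 libraries, 2 carry the genotype label WT and 2 the label CPT2 KO, and all 4 carry the treatment label WT. CPT2 is the mitochondrial enzyme that returns long-chain fatty acids from carnitine to coenzyme A for oxidation. The series is described as a comparison of the stem cells with CPT2 knockout derivatives. The labels do not say how the knockout was made, whether it is 1 clone, or whether replicates are separate cultures. The spread that the p-values measure is therefore only that between these libraries and may be technical.

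Semaphorins are secreted or membrane-bound ligands that share an extracellular sema domain and were first known as repellents of growing axons. They bind plexins, large transmembrane receptors whose cytoplasmic part acts on small GTPases and so on the cytoskeleton and on adhesion. Most secreted class 3 semaphorins need a neuropilin to hold the plexin complex together, whereas classes 4 to 7 bind plexins directly. In the early embryo the family is known for guiding migrating cells of the neural crest, the heart and the vasculature.

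The 4 libraries held 16887789 to 20460031 counts, of which the members took 0.2% to 0.211%. CPT2 itself had 52 and 72 counts under the WT label against 233 and 170 under the CPT2 KO label. The log2 fold change was 1.78 (SE 0.27, edgeR adjusted p = 0.0218), which is against the label. Whether the labels were exchanged, or the edit left the transcript in place, was not tested. Every difference is therefore given between libraries as labelled, and with exchanged labels every sign, fold and direction given here would turn. Replicate 1 labelled WT stood apart over all genes. Its counts differed from those of the other 3 libraries by a chi-square of 39.6 to 53.3 per degree of freedom, and the other 3 differed from each other by 10.5 to 12.6. Over the members alone it stood apart less, with a chi-square of 31.9 to 43.5 per gene against 13.8 to 28.1 between the other 3. All 8 listed markers of pluripotent stem cells were present, with a summed level of 8112 to 9952 CPM (counts per 1000000 counts of the library). Primitive streak and endoderm were read from 10 listed symbols, of which 9 are in the table, since T is an older symbol of TBXT. These markers summed to 3.96 and 3.74 CPM under the WT label, and to 262.7 CPM in replicate 1 and 45.0 CPM in replicate 2 under the CPT2 KO label. The 10 neural progenitor and neuron markers summed to 298.5 and 323.5 against 440.4 and 362.3 CPM. NES alone had 276.7 and 294.8 against 397.6 and 336.7 CPM of this. Of the 8 tested neural markers, 4 had a positive log2 fold change and 4, among them SOX1 and SIX6, a negative one. The 7 neural crest markers summed to 77.3 and 87.1 against 131.1 and 104.4 CPM. Of the 4 tested, ETS1 was higher, with 34.4 and 44.5 against 112.2 and 86.8 CPM. The other 3, among them PAX7 and FOXD3, had a negative log2 fold change. The 8 endothelial and blood markers summed to 9.21 to 15.8 CPM, with groups that overlapped. The 7 fibroblast markers summed to 480.9 and 506.3 against 452 and 437.9 CPM. Most of this sum was THY1 (284.3 and 280.3 against 231.5 and 239.3 CPM) and COL1A2 (162.7 and 187.0 against 187.4 and 161.2 CPM). COL3A1, DCN and LUM had 0 to 7 counts a library. Of single markers, edgeR called ZFP42 (pluripotent) and ETS1 (crest) higher and SIX6, SOX1 (neural) and PAX7 (crest) lower under the CPT2 KO label. Of the streak and endoderm markers 7 were tested, all with higher values in both libraries labelled CPT2 KO (log2 fold changes of 3.55 to 9.67). By edgeR 0 of them were called, with 6 at an unadjusted p under 0.05, and limma-voom called 0. Of the 9 in the table, DESeq2 called 7 higher, and it called 138 genes higher over all genes. With each library left out edgeR called some of the 9 higher, the most where replicate 1 was the only library labelled CPT2 KO. No marker of these lists was at 0 in all 4 libraries. The part of the streak, neural and crest markers in the results below was not tested, and in bulk RNA fewer cells of a type and less RNA per cell cannot be told apart.

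All 31 members had enough counts to be tested. SEMA6D was the only member called by edgeR with all 4 libraries, being lower under the CPT2 KO label. SEMA3A and SEMA3D had the next smallest p-values, with higher values under that label. In numbers, 1 of 31 members was called lower (3.23%), against 0.0569% of all 17564 tested genes, and 0 were called higher, against 0.359% of all genes. A gene is called when its edgeR p, adjusted over all tested genes, is under 0.05. At an unadjusted p under 0.05, 3 members were higher and 2 lower, 16.1% of the members against 9.04% of all genes. DESeq2 called SEMA6D lower and SEMA3A higher, and limma-voom called no member. Without replicate 1 labelled WT, SEMA6D remained the only member called by edgeR. Without replicate 2 labelled WT, edgeR called further members, and calls over all genes rose steeply as well. With 1 of the libraries labelled CPT2 KO left out, whichever it was, edgeR called no member, and lower calls over all genes became fewer too. For 14 members (45.2%) the 2 groups of 2 libraries did not overlap, against 40.9% of all genes, so such separation is common in these libraries. The median log2 fold change was -0.043 over the members and 0.0018 over all tested genes.

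**Figure D1:**
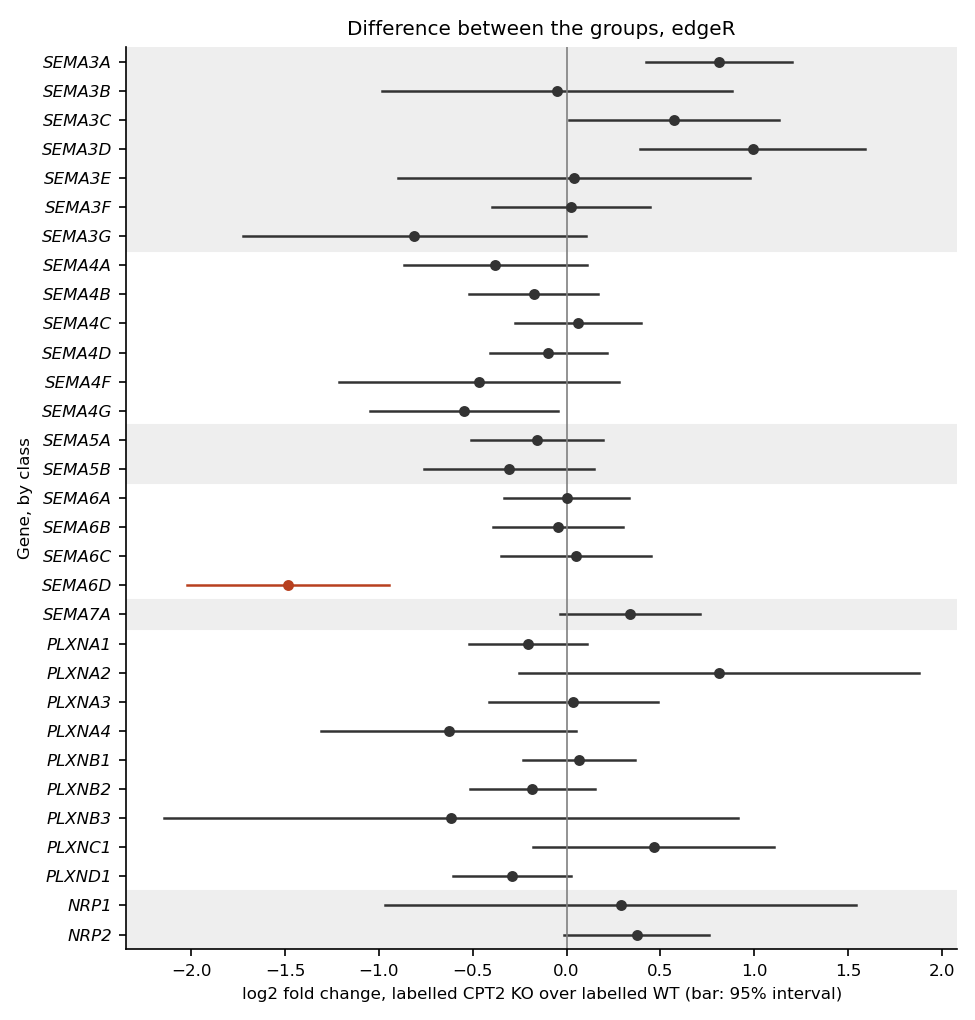
Log2 fold change of each member, CPT2 KO label over WT label, with its 95% interval from edgeR; genes are ordered by class and grey bands mark alternate classes. SEMA6D, in red, is the member with an adjusted p under 0.05 (log2 fold change -1.48), and 26 of the 31 intervals include 0.

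SEMA6D encodes a transmembrane class 6 semaphorin that binds PLXNA1 and is known from heart morphogenesis, where KDR and other co-receptors join the complex. Its gene spans chr15:47184101-47774223 (GRCh38, plus strand, protein coding), with 17 transcripts from 13 start positions in GENCODE 29, and its exons overlap those of no other annotated gene. Because it is the called member, the bases before its 3 RefSeq starts are shown, cut where a GENCODE exon begins. They lie at chr15:47183839-47184088, chr15:47717255-47717362 and chr15:47718239-47718460 on GRCh38.p14, plus strand. Capitals mark the letters CAGAC or, on the other strand, GTCTG, the core of the SMAD-binding element.
SEMA6D start 1: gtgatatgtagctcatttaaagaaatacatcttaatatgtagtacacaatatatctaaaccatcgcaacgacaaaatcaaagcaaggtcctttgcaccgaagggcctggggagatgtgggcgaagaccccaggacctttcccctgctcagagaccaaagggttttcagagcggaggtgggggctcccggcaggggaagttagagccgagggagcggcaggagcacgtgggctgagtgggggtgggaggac
SEMA6D start 2: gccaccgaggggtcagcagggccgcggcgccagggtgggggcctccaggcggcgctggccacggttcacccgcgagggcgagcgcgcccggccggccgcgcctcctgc
SEMA6D start 3: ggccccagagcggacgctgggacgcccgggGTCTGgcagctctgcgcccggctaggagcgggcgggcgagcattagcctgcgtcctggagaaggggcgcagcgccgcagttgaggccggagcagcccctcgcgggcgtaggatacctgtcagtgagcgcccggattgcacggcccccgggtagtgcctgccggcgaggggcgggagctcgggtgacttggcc
Start 1 lies far before the other starts, in sequence of 53.6% G and C with 9 CpG dinucleotides. The stretches before starts 2 and 3 hold 83.3% and 74.3% G and C, with 16 and 25 CpG dinucleotides. The letters CAGAC or GTCTG occur 1 time before start 3 and are not in the other 2 stretches. Among the 250 bases before all 35116 RefSeq starts, 38.0% hold them, and of 48 such windows of 27 members 18 do (37.5%). NRP1, SEMA3A, SEMA6A and SEMA6B had no entry in the promoter table. The count table does not separate the transcripts, so the start behind the reads is not known.

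SEMA6D had 331 and 321 counts under the WT label against 139 and 83 under the CPT2 KO label, or 17.9 and 15.6 against 6.88 and 5.00 CPM. Both libraries labelled CPT2 KO were below both labelled WT, and the gap between the groups was wider than the spread within either. The means were 16.8 ± 1.67 and 5.94 ± 1.33 CPM (SD, n = 2 each), a fold of 0.358 with a 95% interval of 0.246 to 0.520 (log2 fold change -1.48, SE 0.24, edgeR adjusted p = 0.0281). Of all tested genes, 1.98% had a change of this size or larger in either direction. The call held without replicate 1 labelled WT (log2 fold change -1.38) and without replicate 2 labelled WT (-1.58). In these fits more genes were called lower over all genes than with all libraries. The call was lost without replicate 1 labelled CPT2 KO (-1.74) and without replicate 2 labelled CPT2 KO (-1.28), where fewer genes were called lower. It was also lost with limma-voom (-1.49, adjusted p = 0.0803). Over all 13 alternatives the log2 fold change ranged from -1.74 to -1.28. Of 7 other protein-coding genes within 1000000 bases of SEMA6D, 5 were tested and 0 were called by edgeR, with 1 higher at an unadjusted p under 0.05 and a median log2 fold change of 0.16.

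**Figure D2:**
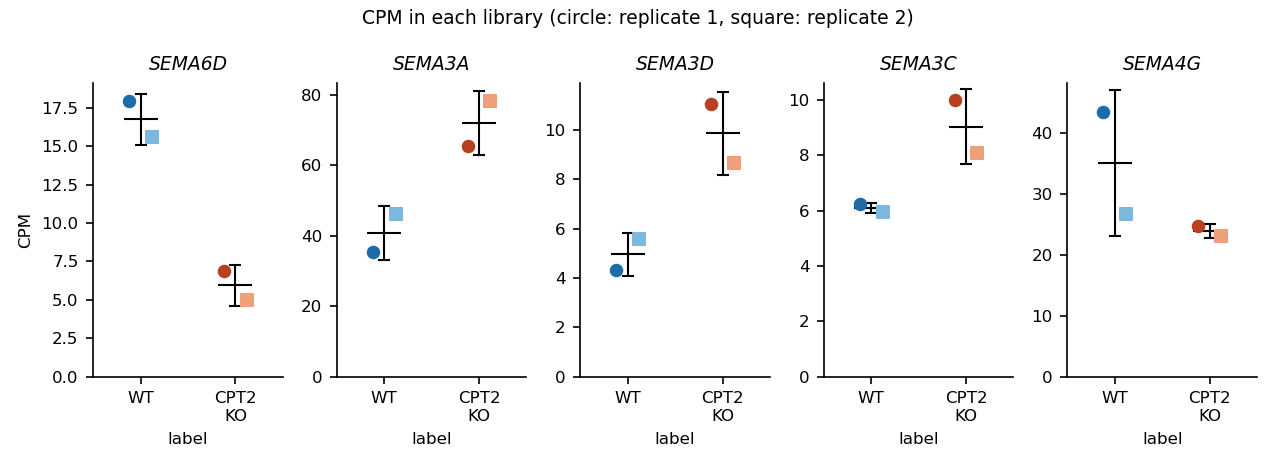
CPM in each library for the 5 members with an unadjusted p under 0.05; points are libraries (circle replicate 1, square replicate 2), the horizontal line is the group mean and the bar its SD, and each vertical axis starts at 0. SEMA6D stands at 15.6 to 17.9 CPM under the WT label and at 5.00 to 6.88 CPM under the CPT2 KO label, and the 2 libraries labelled WT lie far apart for SEMA4G (43.4 and 26.6 CPM).

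The other 3 class 6 genes were not called by edgeR, DESeq2 or limma-voom, and 0 had an unadjusted p under 0.05. SEMA6A, a ligand of PLXNA2 and PLXNA4 in neural development, was by far the highest member. Its gene is at chr5:116443616-116574934 (GRCh38, minus strand). It had 14001 and 19877 counts under the WT label and 16573 and 14989 under the CPT2 KO label, or 758.9 and 964.8 against 820.3 and 903.2 CPM. Both libraries labelled CPT2 KO lay between those labelled WT, and the means were 861.8 ± 146 and 861.7 ± 58.6 CPM (SD, n = 2 each). The 95% interval of the fold ran from 0.793 to 1.26. SEMA6A overlaps SEMA6A-AS1 and SEMA6A-AS2 on the opposite strand over 2.45% and 0.53% of its exon bases, and these had 289 to 463 and 24 to 55 counts, far fewer than SEMA6A itself. SEMA6B stood at 44.2 and 39.8 against 38.9 and 42.6 CPM and SEMA6C at 27.3 and 30.6 against 33.3 and 26.6 CPM, with groups that overlapped for both. Within class 6, SEMA6D took 2.43% and 1.74% of the summed level per kilobase under the WT label and 0.889% and 0.599% under the CPT2 KO label.

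Levels of different genes were compared as CPM per kilobase of the gene length given in the table. On this scale SEMA6A had 69.3 and 88.1 under the WT label and 74.9 and 82.4 under the CPT2 KO label, a mean of 78.7 over the 4 libraries. The next member, PLXNB1, had a mean of 14.95. SEMA6A made up 40.9% to 51.0% of the summed semaphorin level per kilobase in the single libraries. The sum over the 20 semaphorins was 169.4 and 172.8 against 170 and 171.7 CPM per kilobase. Classes 3, 4, 5, 6 and 7 held 15.5%, 20.8%, 4.16%, 55.4% and 4.17% of it on average. The lowest members per kilobase were NRP1 (0.094), PLXNB3 (0.1025) and PLXNA2 (0.28).

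**Figure D3:**
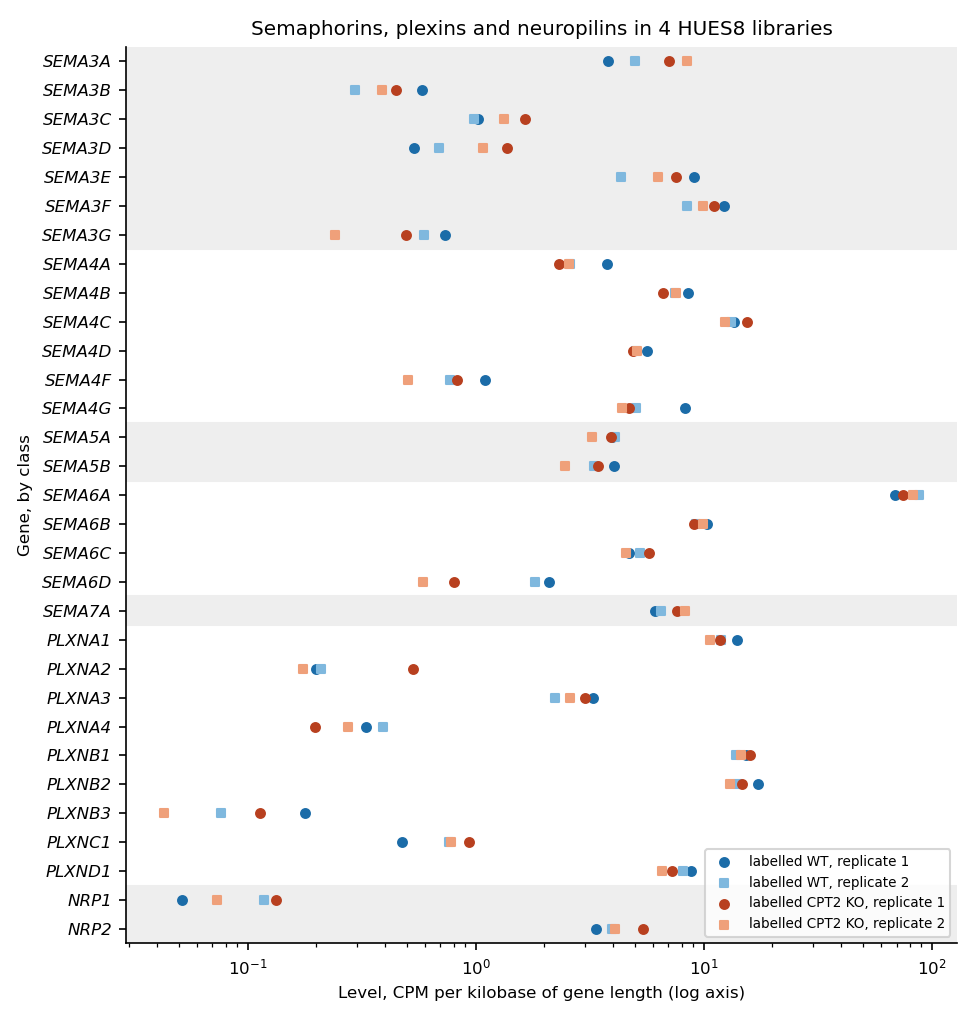
Level of each member in CPM per kilobase of gene length, on a log axis, in the 4 libraries; genes are ordered by class, and colour and shape give the label and replicate. SEMA6A lies at 69.3 to 88.1 in the 4 libraries, and NRP1, at 0.052 to 0.13, has the lowest mean of the 31.

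Among the secreted class 3 semaphorins, SEMA3A, SEMA3C and SEMA3D had higher values in both libraries labelled CPT2 KO, and edgeR and limma-voom called none of the 7. SEMA3A, a repellent of axons that signals through NRP1, had 35.3 and 46.3 CPM under the WT label and 65.4 and 78.3 under the CPT2 KO label. The groups did not overlap, with means of 40.8 ± 7.72 and 71.8 ± 9.08 CPM (SD, n = 2 each), a fold of 1.76 with a 95% interval of 1.34 to 2.30 (log2 fold change 0.81, SE 0.18, edgeR adjusted p = 0.110). SEMA3A was called in 3 of 13 alternatives, among them DESeq2 (adjusted p = 0.0112), and limma-voom did not call it (adjusted p = 0.182). Another of the 3 was edgeR without replicate 2 labelled WT (log2 fold change 1.02). That setting keeps replicate 1, the library that stood apart, as the only one labelled WT. Over all alternatives edgeR, DESeq2 and limma-voom gave log2 fold changes of 0.63 to 1.02. SEMA3D, known from vessel patterning, had 4.34 and 5.58 CPM against 11.0 and 8.68 CPM. Its groups did not overlap either, with a fold of 1.99 and a 95% interval of 1.31 to 3.01 (edgeR adjusted p = 0.241). Of the 13 alternatives, SEMA3D was called in 1, this same setting without replicate 2 labelled WT (log2 fold change 1.19). SEMA3C, which guides cells of the cardiac outflow tract, had 6.23 and 5.97 CPM against 9.998 and 8.074 CPM, a fold of 1.49 (edgeR adjusted p = 0.542).

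SEMA3A, SEMA3C, SEMA3D and SEMA3E lie within 4.44 Mb of each other on chromosome 7, all on the minus strand, at chr7:80742538-85186855 (GRCh38). This stretch holds 7 protein-coding genes. SEMA3E, which acts through PLXND1 without a neuropilin, had 76.9 and 36.7 CPM under the WT label and 63.6 and 53.0 under the CPT2 KO label. The libraries labelled WT lay on either side of those labelled CPT2 KO, and the fold was 1.03 with a 95% interval of 0.537 to 1.97. CACNA2D1 and PCLO, which lie between SEMA3C and SEMA3E, were not called, at log2 fold changes of 0.26 and 0.017 (adjusted p = 0.643 and 0.989 by edgeR). HGF, with 1 to 8 counts a library, was too low to test. The 250 bases before the RefSeq start of SEMA3D, the member with the largest positive fold change, are at chr7:85187057-85187306 (GRCh38.p14, minus strand) and hold CAGAC 1 time, in capitals.
SEMA3D: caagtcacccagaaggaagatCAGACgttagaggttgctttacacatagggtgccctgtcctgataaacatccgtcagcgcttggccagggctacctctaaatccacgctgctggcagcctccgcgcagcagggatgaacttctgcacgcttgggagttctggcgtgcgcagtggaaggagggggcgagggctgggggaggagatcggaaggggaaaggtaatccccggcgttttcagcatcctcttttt
Of these 250 bases 57.6% are G or C, with 13 CpG dinucleotides.

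The class 3 genes on chromosome 3 had no consistent direction. SEMA3F, a ligand of NRP2, had 59.2 and 40.8 CPM under the WT label and 53.4 and 48.0 under the CPT2 KO label, with overlapping groups and a fold of 1.02 (95% interval 0.760 to 1.36). SEMA3B had 35 to 62 counts a library and a fold of 0.966 (95% interval 0.507 to 1.84). SEMA3G had 68 and 61 counts against 50 and 20, or 3.69 and 2.96 against 2.48 and 1.21 CPM, and its fold of 0.570 was not called (95% interval 0.302 to 1.08, edgeR adjusted p = 0.599). SEMA3A made up 13.6% and 24.6% of the class 3 level per kilobase under the WT label and 23.9% and 30.5% under the CPT2 KO label.

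**Figure D4:**
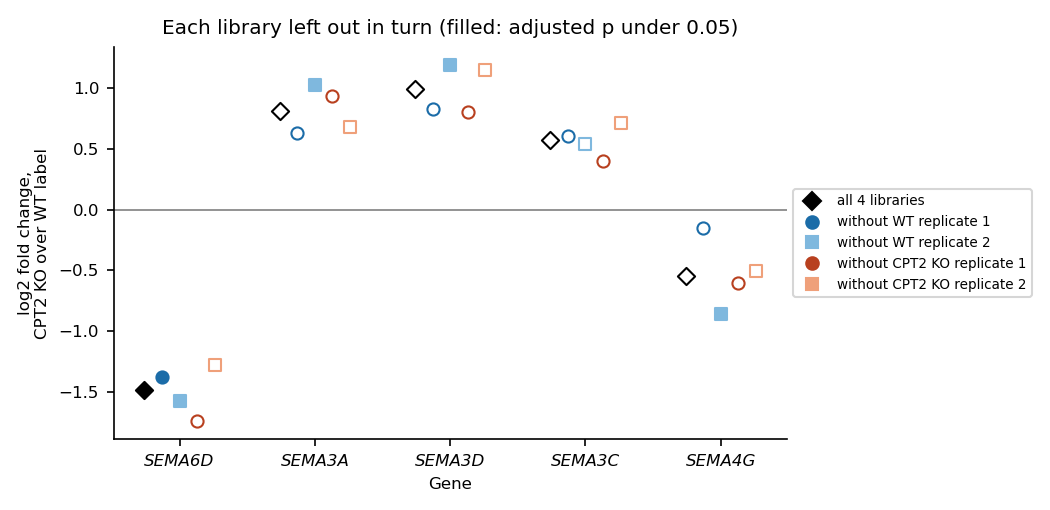
Log2 fold change of the 5 members with an unadjusted p under 0.05, with all 4 libraries and with each left out in turn; filled points have an edgeR adjusted p under 0.05 and open points do not. The sign is the same in all settings for each of the 5, and SEMA4G moves between -0.86 without replicate 2 and -0.15 without replicate 1 labelled WT.

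The membrane-bound class 4 semaphorins had a negative log2 fold change in 5 of 6 genes, against 8730 of all 17564 tested genes. In each of these 5 genes replicate 1 labelled WT was the highest library. Without it their log2 fold changes ran from -0.19 to -0.018, against -0.55 to -0.097 with all libraries. Class 4 had 0 calls by edgeR, DESeq2 and limma-voom, and 1 unadjusted p under 0.05 (16.7% against 9.04% of all genes). That gene was SEMA4G, with 43.4 and 26.6 CPM against 24.7 and 23.1 CPM. The groups did not overlap, but replicate 1 labelled WT was high and the others were close together. The fold was 0.684 (-0.55 on the log2 scale, SE 0.23, edgeR adjusted p = 0.519). On the log2 scale it became -0.15 when replicate 1 labelled WT was left out (edgeR adjusted p = 0.999) and -0.86 when replicate 2 labelled WT was (edgeR adjusted p = 0.00366). Of its exon bases, 22.3% overlap MRPL43 on the opposite strand, which had 494 to 571 counts, so the assignment of its reads is uncertain. SEMA4C, a ligand of PLXNB2, was the highest class 4 gene per kilobase, with 13.6 and 13.2 against 15.5 and 12.4 CPM per kilobase. Its groups overlapped, and the fold was 1.04 (95% interval 0.826 to 1.32). SEMA4D, the ligand of PLXNB1, had 79.6 and 71.5 against 69.3 and 72.0 CPM and a fold of 0.935 (95% interval 0.753 to 1.16). SEMA4A, SEMA4B and SEMA4F had folds of 0.768, 0.885 and 0.725, each with an interval that includes 1.

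Classes 5 and 7 likewise held no called gene in edgeR, DESeq2 or limma-voom and none with an unadjusted p under 0.05. SEMA5A, whose thrombospondin repeats set class 5 apart, had 48.7 and 49.99 CPM against 48.5 and 39.9 CPM, and SEMA5B had 34.5 and 28.0 against 29.3 and 21.0 CPM. SEMA7A, a membrane-anchored ligand of PLXNC1 and of integrin beta 1, had 23.1 and 24.7 CPM under the WT label and 29.01 and 31.45 under the CPT2 KO label. Its groups did not overlap, and the fold of 1.26 had a 95% interval of 0.975 to 1.63 (edgeR adjusted p = 0.592).

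None of the 9 plexins and neither neuropilin was called by edgeR, DESeq2 or limma-voom, and 0 of these 11 had an unadjusted p under 0.05. PLXNB1 and PLXNB2, the receptors of class 4 semaphorins, were the highest receptors and together made up 54.2% to 56.6% of the plexin level per kilobase. PLXNB1 had 15.3 and 13.9 CPM per kilobase under the WT label and 16.02 and 14.55 under the CPT2 KO label, with a fold of 1.05 (95% interval 0.850 to 1.29). PLXNB2 had 17.3 and 14.2 against 14.78 and 12.97 CPM per kilobase and a fold of 0.882 (95% interval 0.699 to 1.11). Their groups overlapped. PLXNA1, the receptor of SEMA6D, had 152.4 and 130.4 CPM against 128.2 and 116.8 CPM. Both libraries labelled CPT2 KO were lower, though the fold of 0.867 had a 95% interval of 0.698 to 1.08 (edgeR adjusted p = 0.683). PLXND1, the receptor of SEMA3E, had 85.9 and 79.3 CPM against 70.8 and 64.0 CPM, also without overlap and with a fold of 0.816 (95% interval 0.656 to 1.01, edgeR adjusted p = 0.581).

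The receptors of SEMA6A were low. PLXNA2 had 51 and 60 counts under the WT label against 148 in replicate 1 and 40 in replicate 2 under the CPT2 KO label, or 2.76 and 2.91 against 7.33 and 2.41 CPM. A single library, replicate 1 labelled CPT2 KO, was high, and the log2 fold change of 0.81 (edgeR adjusted p = 0.638) was -0.24 without it (edgeR adjusted p = 0.911). That library also had the larger sum of primitive streak markers, 262.7 against 45.0 CPM, whose part in this value was not tested. PLXNA4 had 5.42 and 6.41 against 3.22 and 4.52 CPM, a fold of 0.647 (95% interval 0.404 to 1.04, edgeR adjusted p = 0.583). PLXNA3 had 26.2 to 38.1 CPM over the libraries and a fold of 1.02, and PLXNC1 had 4.77 and 7.62 against 9.36 and 7.77 CPM and a fold of 1.38 (edgeR adjusted p = 0.649). PLXNB3 had 5 to 23 counts, and at this depth the 95% interval of its fold ran from 0.226 to 1.88. It shares 20.4% of its exon bases with SRPK3 on the same strand.

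Of the neuropilins, which bind both class 3 semaphorins and vascular endothelial growth factors, NRP2 took nearly all of the level. NRP2 had 46.8 and 54.9 CPM under the WT label and 75.2 and 56.5 under the CPT2 KO label. The groups did not overlap, replicate 1 labelled CPT2 KO being the highest, and the fold was 1.29 (95% interval 0.990 to 1.69, edgeR adjusted p = 0.569). NRP1, the co-receptor of SEMA3A, had 11 and 28 counts against 31 and 14, or 0.596 to 1.53 CPM, and the 95% interval of its fold was 0.512 to 2.91. NRP2 made up 97.1% to 98.5% of the neuropilin level per kilobase.

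Other genes of the pathway were read from lists of partners, growth factors and effectors, and edgeR called 0 of the 48 tested, as did DESeq2 and limma-voom. Among 11 tested co-receptors and other receptor partners, 2 had an unadjusted p under 0.05 (18.2% against 9.04% of all genes), both higher. KDR, a growth factor receptor that joins SEMA6D and PLXNA1, had 380.7 and 350.7 CPM against 574.8 and 426.6 CPM (log2 fold change 0.45, SE 0.16, edgeR adjusted p = 0.424). Its highest value was in replicate 1 labelled CPT2 KO, which also had the larger sum of primitive streak markers. The part of those markers in the KDR value was not tested. MET, a partner of B plexins, had 21.3 and 23.4 against 30.7 and 30.7 CPM (log2 fold change 0.46, edgeR adjusted p = 0.437). ITGB1 and ERBB2, with mean levels of 771.1 and 379.0 CPM, had log2 fold changes of -0.21 and 0.16. The 4 tested growth factors that bind neuropilins had 0 unadjusted p-values under 0.05, with log2 fold changes of -0.54 for VEGFA, 0.29 for VEGFB and 0.33 for VEGFC. VEGFA stood at 101.4 and 55.0 CPM under the WT label and 64.4 and 43.0 under the CPT2 KO label, the value of replicate 1 labelled WT being the highest.

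The 33 intracellular effectors split into 17 positive and 16 negative log2 fold changes, with a median of 0.018. Of them 4 (12.1%) had an unadjusted p under 0.05, against 9.04% of all genes. MICAL1, a monooxygenase that binds plexins and disassembles actin filaments, had 62.2 and 67.4 CPM against 95.3 and 92.4 CPM. Its groups did not overlap (log2 fold change 0.53, SE 0.14, edgeR adjusted p = 0.206). DPYSL2, which carries the SEMA3A signal to microtubules, was at -0.30 on the log2 scale (adjusted p = 0.528 by edgeR). DPYSL4 was at -0.52 (adjusted p = 0.542) and GSK3B, a kinase that phosphorylates DPYSL2, at -0.35 (adjusted p = 0.523), both by edgeR. The most abundant effectors, DPYSL3, CFL1 and RHOA, had log2 fold changes of 0.036, 0.066 and 0.018.

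The other families of guidance cues had 0 calls by edgeR and by limma-voom among 38 tested genes. In the Slit and Robo family 6 of 6 tested genes had a negative log2 fold change (median -0.42), against 8730 of all 17564 tested genes. For ROBO2, ROBO3 and SLIT1 the groups overlapped, and replicate 1 labelled WT was the highest library. The family had 1 unadjusted p under 0.05 (16.7% against 9.04% of all genes), that of SLIT2. SLIT2, a secreted repellent, had 33.9 and 24.1 CPM against 15.6 and 13.1 CPM (log2 fold change -1.01, SE 0.22, edgeR adjusted p = 0.110), and DESeq2 called it lower. The 11 tested netrins and netrin receptors had a median of -0.096 and 3 unadjusted p-values under 0.05, or 27.3% against 9.04% of all genes. NTN1, with 9.65 and 12.4 against 21.5 and 18.3 CPM, had a log2 fold change of 0.85 (adjusted p = 0.193 by edgeR), and that of NTN4 was 0.82 (edgeR adjusted p = 0.523). NTNG2 went the other way, with 3.74 and 5.24 against 1.83 and 2.41 CPM (-1.10 on the log2 scale, edgeR adjusted p = 0.381). The 21 tested ephrins and Eph receptors had a median of 0.057 and 3 unadjusted p-values under 0.05 (14.3%). None of these medians was tested against that of the semaphorin and plexin genes.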

How the data were processed

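RNA-seq read counts were deposited by the authors for 4 libraries of HUES8 cells, as raw counts per gene symbol with a gene length, per the file headers. The submitters' processing notes name HISAT2 2.1.0, featureCounts 1.6.4 and the build hg38 (GRCh38). Not given in the sources used here are the annotation release, the use of strand and the treatment of reads with several alignments. Genes were filtered with filterByExpr of edgeR by group, which left 17564, and library sizes were scaled with the TMM method. CPM were computed from these. The 2 groups were compared by edgeR 4.0.16 in R 4.3.3 (quasi-likelihood F-test, robust, no covariate), and p-values were adjusted by Benjamini-Hochberg over the 17564 genes. SE is the size of the log2 fold change over the square root of F, and 95% intervals use the fit's degrees of freedom.

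Alternatives were 3 other scalings, 2 other filters, the legacy estimate, the replicate block, limma-voom (limma 3.58.1), DESeq2 1.42.0 and each library left out. Levels between genes are per kilobase of the table's length, which equals the summed exon length of GENCODE 29 for 77.8% of 56159 symbols. All members are described, with values in every library for those called, those with an unadjusted p under 0.05 and the 8 highest per kilobase, and of other lists called genes and up to 3 with the highest CPM. SLIT2, NTN1, NTN4, NTNG2, MICAL1, KDR, MET, DPYSL2, DPYSL4, GSK3B, the neighbours of members and the library values of VEGFA fall outside this rule, were chosen with their values in view, and so were library values of further members. The members and lists were chosen with earlier results of these data known. Positions are from GENCODE 29 and promoter sequences from RefSeq (GRCh38.p14).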

Additional observations from a re-analysis of the deposited data

How the results depend on the processing

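SEMA6D was called lower by edgeR and in 10 of 13 alternatives, and the exceptions were limma-voom and each library labelled CPT2 KO left out. The number of members called lower was 0 with limma-voom and 0 to 2 with each library left out. The number called higher was 1 with the replicate block, 1 with DESeq2 and 0 to 2 with each library left out. Nothing in the labels says that equal replicate numbers share a batch, and the deviations of same-numbered libraries had a correlation of 0.219. With the replicate block, SEMA3A (adjusted p = 0.00418) joined SEMA6D (0.00221), and the calls over all genes were 233 higher and 140 lower, against 63 and 10 without it. Over all genes, no filter gave 101 higher and 23 lower, limma-voom 28 and 2, DESeq2 138 and 45, and each library left out 23 to 490 and 1 to 643, both maxima without replicate 2 labelled WT. Pathway and comparison genes gave 2 higher and 2 lower calls with the replicate block, 1 lower with no filter, 1 lower with DESeq2, and 0 to 3 higher and 0 to 10 lower with each library left out. SEMA6A took 57.5% of the summed semaphorin CPM without length, against 46.0% per kilobase. Where a library was left out, the lone library of its group was assumed to vary like the other group. Streak and endoderm markers called higher numbered 6 with the replicate block, 2 with no filter, 1 with the legacy estimate, and 2 to 9 with each library left out. The cause of these changes was not tested.

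Of 31 members, 12 changed sign in at least 1 alternative (25 of 402 values), and none of these values passed the threshold. With each library left out, the log2 fold change ranged from -0.23 to 1.02 for NRP1, -0.24 to 1.37 for PLXNA2, -0.21 to 0.33 for PLXNA3, -0.0051 to 0.14 for PLXNB1, -1.52 to 0.092 for PLXNB3, -0.475 to 0.506 for SEMA3B, -0.40 to 0.67 for SEMA3E, -0.22 to 0.32 for SEMA3F, -0.11 to 0.22 for SEMA4C, -0.16 to 0.18 for SEMA6A, -0.118 to 0.033 for SEMA6B and -0.12 to 0.20 for SEMA6C. SEMA3B was at 0.032 with limma-voom, and SEMA6A at 0.0011 with the stricter filter, 0.0085 with the replicate block and 0.0081 with limma-voom. At these depths 1 count was worth 0.0485 to 0.0603 CPM, and PLXNB3 and NRP1, with 5 to 31 counts, had the widest intervals together with PLXNA2.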
